A study of Homo sapiens with 24 samples.

Results

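The genes described here are 9 genes that TGF-beta or YAP signalling uses or switches on: the ligand genes TGFB1 and TGFB2, the pathway inhibitor SMAD7, the matrix genes TGFBI and THBS1, and the YAP target genes CCN1, CCN2, ANKRD1 and AMOTL2. They were followed in U251 cells, an established human glioblastoma cell line, treated with G-1, a synthetic agonist of the G protein-coupled estrogen receptor GPER. All array probes whose RefSeq transcript belonged to 1 of these symbols were taken, which gave 10 probes of 58201 on the array and 9 genes of the 24847 that could be named. THBS1 had 2 probes and the other genes 1 each. In RefSeq (GRCh38.p14), CCN2 lies at chr6:131948176-131951372, ANKRD1 at chr10:90912096-90921087 and SMAD7 at chr18:48919853-48950965, all on the minus strand, and the probes match transcripts of these genes. U251 cells were seeded, kept in charcoal-stripped medium without steroid hormones, and then given vehicle (DMSO, 0.1% per the labels), G-1 at its IC50 or G-1 at 1 µM, for 24 h or 72 h. The IC50 is the dose found to inhibit these cells to the midpoint of the response, and it was below 1 µM. Each of the 6 groups had 4 independent biological replicates, so that 24 1-colour microarrays were read, all from 1 cell line. In total RNA of a culture, fewer cells of a kind and less RNA per cell cannot be told apart.

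TGF-beta ligands are secreted in a latent form, are released in the matrix and bind a pair of receptor kinases, which phosphorylate SMAD2 and SMAD3. These SMADs enter the nucleus with SMAD4 and switch on genes such as SMAD7, whose protein blocks the receptor, and TGFBI, which encodes a secreted matrix protein. YAP and its relative TAZ (gene WWTR1) are coactivators that the Hippo kinases LATS1 and LATS2 keep out of the nucleus, and in the nucleus they bind TEAD factors at genes such as CCN1, CCN2, ANKRD1 and AMOTL2. In glioblastoma, TGF-beta is known for its part in invasion and immune suppression, and YAP for growth and cell contact sensing. Many targets, CCN2 and THBS1 among them, respond to both pathways.

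The promoters of the members were searched for the TEAD motif GGAATG on both strands, because it is the element through which YAP is known to act at CCN2. The RefSeq promoter table (GRCh38.p14) held 8 of the 9 genes, with 11 promoters in all, and did not list CCN1. Within the 250 bases before the start site, 5 genes had at least 1 match (CCN2, ANKRD1, THBS1, AMOTL2 and TGFB2), while 11.9% of the 35116 promoters in the table had one. CCN2 had 3 matches, at 169, 104 and 95 bases before the start, a number reached by 0.0826% of all promoters, and ANKRD1 had 2, at 220 and 128 bases, while 0.94% of promoters had 2 or more. The SMAD palindrome, GTCT followed by its reverse complement AGAC, matched no member promoter (0.182% of all promoters), the shorter SMAD element CAGACA matched promoters of 3 members (13.6% of all promoters), namely ANKRD1, TGFB2 and the first promoter of AMOTL2, and the AP-1 motif TGANTCA matched ANKRD1 alone (6.57%). The CArG box of serum response factor matched none (1.16%). Below are 4 of these promoters, written 5′ to 3′ on the strand of the gene, for the YAP targets with several matches and for 2 members that had 1 match each and moved in opposite directions after G-1. Capitals mark the TEAD motif, which reads CATTCC where it lies on the opposite strand. The matches describe the letters in these windows, not bound sites.
CCN2, chr6:131951373-131951622, minus strand: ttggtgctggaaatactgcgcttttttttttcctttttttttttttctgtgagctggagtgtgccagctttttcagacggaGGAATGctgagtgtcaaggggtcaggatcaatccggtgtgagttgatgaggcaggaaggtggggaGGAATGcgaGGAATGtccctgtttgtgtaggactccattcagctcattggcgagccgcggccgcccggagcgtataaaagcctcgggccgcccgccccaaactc
ANKRD1, chr10:90921088-90921337, minus strand: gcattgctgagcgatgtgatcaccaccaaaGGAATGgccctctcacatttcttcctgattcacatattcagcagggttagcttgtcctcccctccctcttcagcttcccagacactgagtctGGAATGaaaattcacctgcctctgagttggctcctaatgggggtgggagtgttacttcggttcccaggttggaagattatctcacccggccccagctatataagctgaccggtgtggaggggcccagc
THBS1, chr15:39580829-39581078, plus strand: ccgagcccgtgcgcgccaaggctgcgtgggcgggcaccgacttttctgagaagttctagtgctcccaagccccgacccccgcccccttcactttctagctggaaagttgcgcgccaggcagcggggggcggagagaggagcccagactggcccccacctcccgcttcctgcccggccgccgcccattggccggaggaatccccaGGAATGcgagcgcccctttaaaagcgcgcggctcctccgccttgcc
AMOTL2, second promoter, chr3:134374448-134374697, minus strand: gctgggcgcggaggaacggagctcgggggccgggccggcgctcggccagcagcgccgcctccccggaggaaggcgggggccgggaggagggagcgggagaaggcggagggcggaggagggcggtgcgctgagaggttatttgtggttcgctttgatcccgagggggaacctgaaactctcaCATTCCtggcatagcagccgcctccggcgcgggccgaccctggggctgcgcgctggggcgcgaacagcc

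Levels are given as log2 signal, with the 75th percentile of each array set to 0, and changes as log2 fold changes from 1 linear model over the 24 arrays. A gene passed at an adjusted p under 0.05 (limma, Benjamini-Hochberg over 22970 probes) and was called if its fold change was also above 2. Shares for all genes refer to the 14235 named genes tested, each by its brightest probe. All 10 member probes were well above background on all 24 arrays. The 8 arrays of G-1 1 µM lay together on slide 3, which was scanned in a later session, and slides 1 and 2 held the DMSO and IC50 arrays of both durations. At a given duration, the 1 µM dose and that slide cannot be told apart. Between 38.0% and 40.7% of spots were well above background on slide 3 and between 41.1% and 44.5% on slides 1 and 2. With the tested probes in 5 equal groups by brightness, the dimmest group had a median change of -0.31 at 1 µM for 72 h, and the next, where ANKRD1 and SMAD7 lie, a median of -0.09. The other members lay in the 3 brighter groups, with medians from 0.01 to 0.03.

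After 72 h of G-1 at 1 µM, 7 of the 9 members passed the test, 6 higher (SMAD7, TGFBI, THBS1, CCN1, CCN2 and ANKRD1) and 1 lower (AMOTL2), and the ligand genes TGFB1 and TGFB2 did not pass. Of all genes, 65.6% passed in this comparison, 32.7% higher and 32.9% lower. ANKRD1, CCN2 and SMAD7 were called, all 3 higher, against 12.6% of all genes called. The arrays of the groups did not overlap for 7 of the 9 members, against 59.2% of all genes. The median change of the members was 0.74, and that of all genes -0.01. A large part of the transcriptome had thus changed by the same criteria, and the counts are to be read against these shares.

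**Figure D1:**
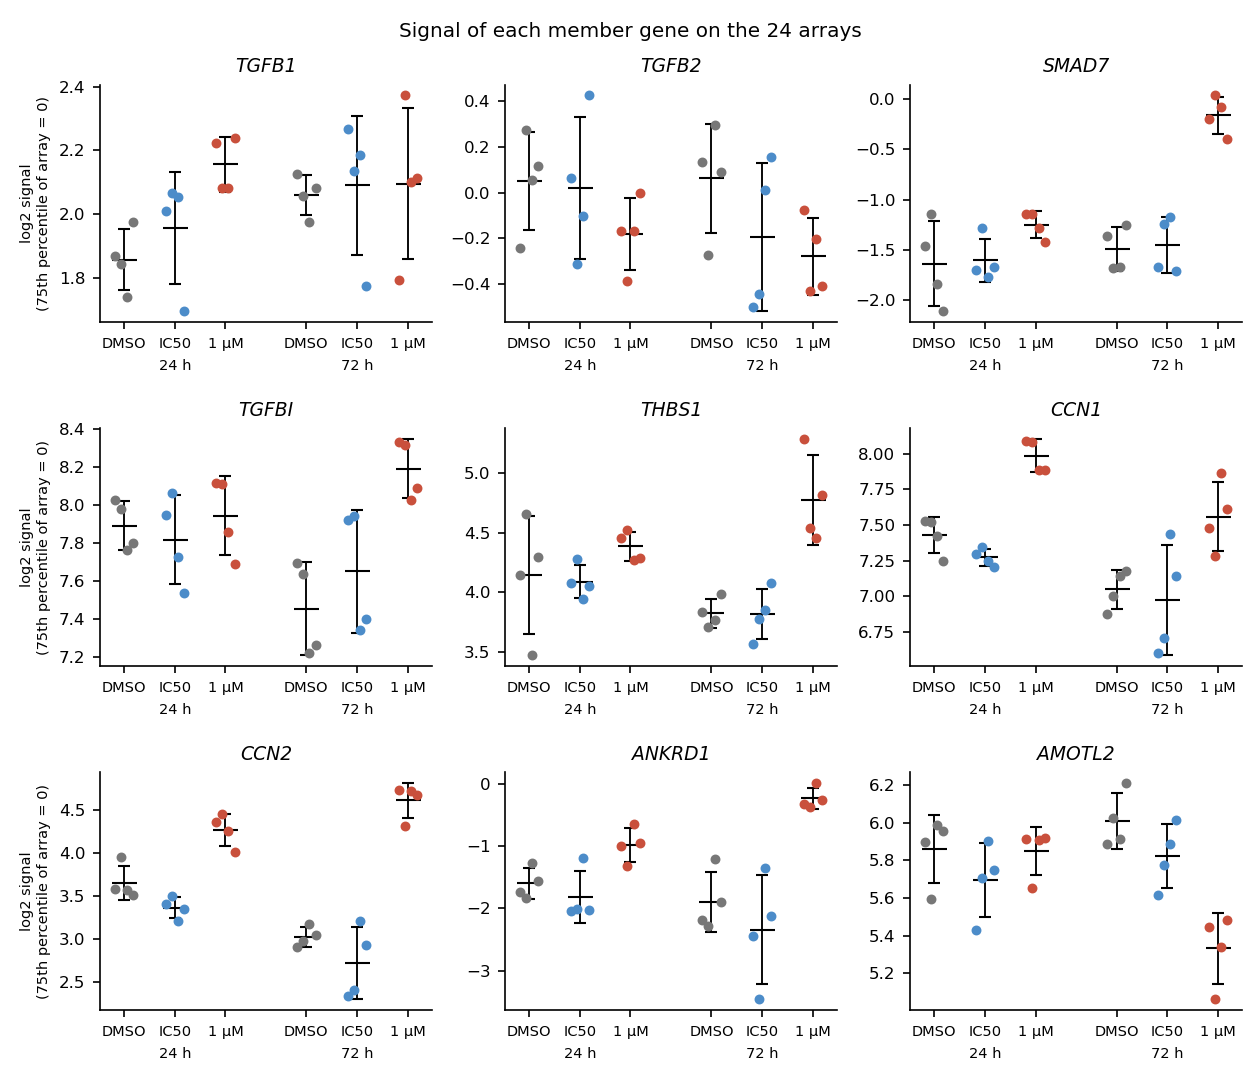
Log2 signal (75th percentile of the array = 0) of the brightest probe of each of the 9 genes on every array, by dose (DMSO, IC50, 1 µM) at 24 h and at 72 h. Points are the 4 arrays of a group and bars the mean ± SD. SMAD7, CCN2 and ANKRD1 stood above both other treatments on all 4 arrays at 1 µM for 72 h, and AMOTL2 stood below them.

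The ligand genes passed at neither duration, TGFB1 at 24 h only narrowly missing the threshold. TGFB1, which encodes the main TGF-beta ligand, had levels of 1.79, 2.37, 2.10 and 2.11 at 1 µM for 72 h and of 2.13, 2.06, 1.98 and 2.08 in DMSO. The groups overlapped, with a difference of 0.03 (95% interval -0.20 to 0.27, adjusted p = 0.803, limma). At 24 h, TGFB1 stood at 2.22, 2.08, 2.08 and 2.24 under 1 µM and at 1.87, 1.84, 1.74 and 1.97 in DMSO. These arrays did not overlap (exact permutation p = 0.0286, the smallest that 4 arrays against 4 can give), but the difference of 0.30 missed the threshold over all probes (adjusted p = 0.0511). It passed in 4 alternatives (a stricter filter on dim probes, the deposited table, the arrays of the comparison alone and the methods' t-test after Benjamini-Hochberg), at adjusted p from 0.0263 to 0.0438. TGFB2, the ligand isoform first known from glioblastoma cells, had a difference of -0.34 at 72 h (95% interval -0.68 to 0.01, adjusted p = 0.0787). Its 4 arrays lay between -0.43 and -0.08 under 1 µM and between -0.27 and 0.29 in DMSO, and the groups overlapped. Without replicate 2 of DMSO at 72 h, TGFB2 differed by -0.45 (adjusted p = 0.0283).

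SMAD7, the inhibitory SMAD that TGF-beta itself induces, was among the called genes. At 1 µM for 72 h its levels were -0.20, 0.04, -0.08 and -0.40, and in DMSO -1.36, -1.68, -1.67 and -1.25. All 4 treated arrays lay above all 4 vehicle arrays, and SMAD7 rose by 1.33 (log2; SE 0.18, adjusted p = 1.6e-06), a fold change of 2.52 (95% interval 1.95 to 3.25). With normexp background correction the difference was 0.87 (adjusted p = 3.4e-07), which passes the test but not the fold threshold. At 24 h the difference was 0.39 (95% interval 0.02 to 0.76, adjusted p = 0.102) and the groups overlapped. Without replicate 2 of DMSO at 24 h it was 0.56 (adjusted p = 0.0215).

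TGFBI and THBS1 encode secreted proteins of the extracellular matrix. THBS1 encodes thrombospondin-1, which can release TGF-beta from its latent form. TGFBI stood at 8.33, 8.32, 8.03 and 8.09 at 1 µM for 72 h and at 7.69, 7.63, 7.22 and 7.26 in DMSO. The groups did not overlap, and TGFBI rose by 0.74 (SE 0.15, adjusted p = 0.0003). At 24 h, TGFBI differed by 0.05 (95% interval -0.27 to 0.37, adjusted p = 0.828).

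The brighter THBS1 probe read 5.29, 4.54, 4.45 and 4.82 at 1 µM for 72 h and 3.83, 3.70, 3.76 and 3.98 in DMSO. All treated arrays lay above all vehicle arrays, and the probe rose by 0.95 (SE 0.19, adjusted p = 0.0002). The dimmer THBS1 probe differed by 0.41 (95% interval 0.03 to 0.78, adjusted p = 0.0557), and its groups overlapped, between 0.76 and 1.43 under 1 µM and between 0.40 and 0.83 in DMSO. The probes of THBS1 thus pointed the same way, and the brighter one alone passed.

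CCN1 and CCN2 encode secreted matrix-associated proteins, formerly CYR61 and CTGF, and are the YAP targets most used as readouts. CCN2 stood at 4.73, 4.31, 4.72 and 4.67 at 1 µM for 72 h and at 2.91, 2.98, 3.17 and 3.05 in DMSO. The groups were more than 1 log2 unit apart at their nearest arrays, and CCN2 rose by 1.58 (SE 0.16, adjusted p = 3.3e-08), a fold change of 2.99 (95% interval 2.38 to 3.74). At 24 h, CCN2 stood at 4.36, 4.44, 4.25 and 4.01 under 1 µM and at 3.59, 3.95, 3.57 and 3.51 in DMSO. All treated arrays again lay above the vehicle arrays, and CCN2 was 0.61 higher (SE 0.16, adjusted p = 0.0071).

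CCN1 stood at 7.48, 7.29, 7.86 and 7.61 at 1 µM for 72 h and at 6.88, 7.01, 7.14 and 7.18 in DMSO. The groups did not overlap, and CCN1 rose by 0.51 (SE 0.14, adjusted p = 0.004). At 24 h, the levels were 8.09, 8.08, 7.88 and 7.89 under 1 µM and 7.53, 7.52, 7.42 and 7.25 in DMSO. CCN1 rose by 0.56 there (SE 0.14, adjusted p = 0.0072), again with no overlap. CCN1 and CCN2 were the members that passed at both durations, but with the arrays scaled to their 50th percentile neither passed at 24 h (adjusted p = 0.0531 and 0.055).

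ANKRD1, an ankyrin-repeat cofactor that stretch and YAP induce, had the largest change of the 9 in the main fit. Its levels at 1 µM for 72 h were -0.32, -0.38, 0.01 and -0.26, and in DMSO -2.19, -2.28, -1.21 and -1.89. The groups did not overlap, and ANKRD1 rose by 1.66 (SE 0.31, adjusted p = 0.00011), a fold change of 3.15 (95% interval 2.01 to 4.96). Over 10 alternative settings its change lay between 1.07 and 1.71, and that of CCN2 between 1.54 and 1.62. The size for ANKRD1 and its rank above CCN2 thus depended on the processing. At 24 h the arrays overlapped, from -1.32 to -0.65 under 1 µM and from -1.84 to -1.27 in DMSO, with a difference of 0.62 (95% interval -0.03 to 1.27, adjusted p = 0.143). It passed with normexp (0.45, adjusted p = 0.0242) and with the arrays of the comparison alone (adjusted p = 0.0332).

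AMOTL2, an angiomotin-family protein that YAP induces and that in turn binds and restrains YAP, went the other way. It stood at 5.45, 5.06, 5.34 and 5.48 at 1 µM for 72 h and at 5.89, 6.03, 5.91 and 6.21 in DMSO. All treated arrays lay below all vehicle arrays, and AMOTL2 fell by 0.68 (SE 0.12, adjusted p = 4.9e-05), to 0.626 of its vehicle signal (95% interval 0.528 to 0.743). At 24 h it differed by -0.01 (95% interval -0.26 to 0.24, adjusted p = 0.954).

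**Figure D2:**
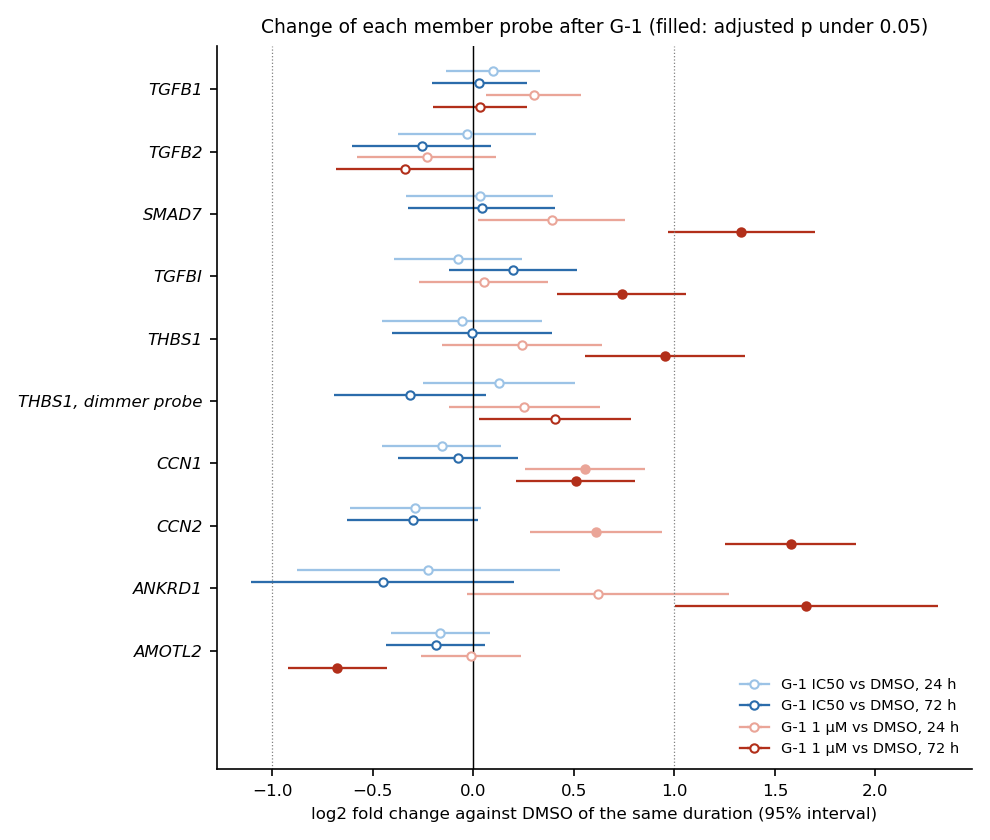
Log2 fold change with its 95% interval for each of the 10 member probes in the 4 comparisons with DMSO; filled points passed at an adjusted p under 0.05, and dotted lines mark a fold change of 2. Filled points occur only at 1 µM: CCN1 and CCN2 at 24 h, and 7 genes at 72 h, of which AMOTL2 alone lies below 0.

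At 24 h of 1 µM, 2 of the 9 members passed (CCN1 and CCN2, both higher) and none was called. Of all genes, 29.3% passed, 17.2% higher, and 1.68% were called. For 3 members (CCN1, CCN2 and TGFB1) the arrays of the groups did not overlap, against 29.1% of all genes. Whether the effect of 1 µM differed between 72 h and 24 h was tested as an interaction, in which a constant offset of slide 3 cancels. The effect was larger at 72 h for CCN2, by 0.97 (SE 0.22, adjusted p = 0.0024), for SMAD7, by 0.94 (SE 0.25, adjusted p = 0.0068), and for TGFBI, by 0.69 (SE 0.22, adjusted p = 0.0204). For AMOTL2 it was lower by 0.66 (a difference of -0.66, SE 0.17, adjusted p = 0.0049). Vehicle levels enter these differences. From 24 h to 72 h, mean CCN2 went from 3.65 to 3.03 in DMSO and from 4.27 to 4.61 under 1 µM. For TGFBI, the means went from 7.89 to 7.45 in DMSO and from 7.94 to 8.19 under 1 µM. Those of SMAD7 went from -1.64 to -1.49 and from -1.25 to -0.16, and those of AMOTL2 from 5.86 to 6.01 and from 5.85 to 5.33.

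The other 5 members did not pass this interaction. For ANKRD1 the difference between durations was 1.04 (95% interval 0.11 to 1.96, adjusted p = 0.0816) and for the brighter THBS1 probe 0.71 (adjusted p = 0.0505). For the dimmer THBS1 probe it was 0.15 (95% interval -0.38 to 0.68, adjusted p = 0.696). ANKRD1 passed without replicate 3 of DMSO at 72 h (1.26, adjusted p = 0.0347), with normexp (0.62, adjusted p = 0.0232) and with the arrays of the comparison alone (adjusted p = 0.0162). The brighter THBS1 probe passed with quantile normalization, a stricter filter and the deposited table (adjusted p from 0.0402 to 0.0499). It also passed in 5 of the 16 fits that left out 1 array, most clearly without replicate 3 of DMSO at 24 h (0.94, adjusted p = 0.00372). The others were those without DMSO 72 h replicate 4, 1 µM 24 h replicate 2 or 1 µM 72 h replicates 2 or 3 (adjusted p from 0.0311 to 0.0498). For CCN1 the difference between durations was -0.05 (95% interval -0.47 to 0.37, adjusted p = 0.89), with similar changes at 24 h and at 72 h. Passing members were 4 of 9, 3 higher and 1 lower, and none was called, against 34% of all genes passing, 15.7% higher and 18.3% lower, and 6.32% called. TGFBI no longer passed without replicate 4 of G-1 1 µM at 24 h (0.60, adjusted p = 0.0501) or without the filter on dim probes (0.69, adjusted p = 0.0704).

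**Figure D3:**
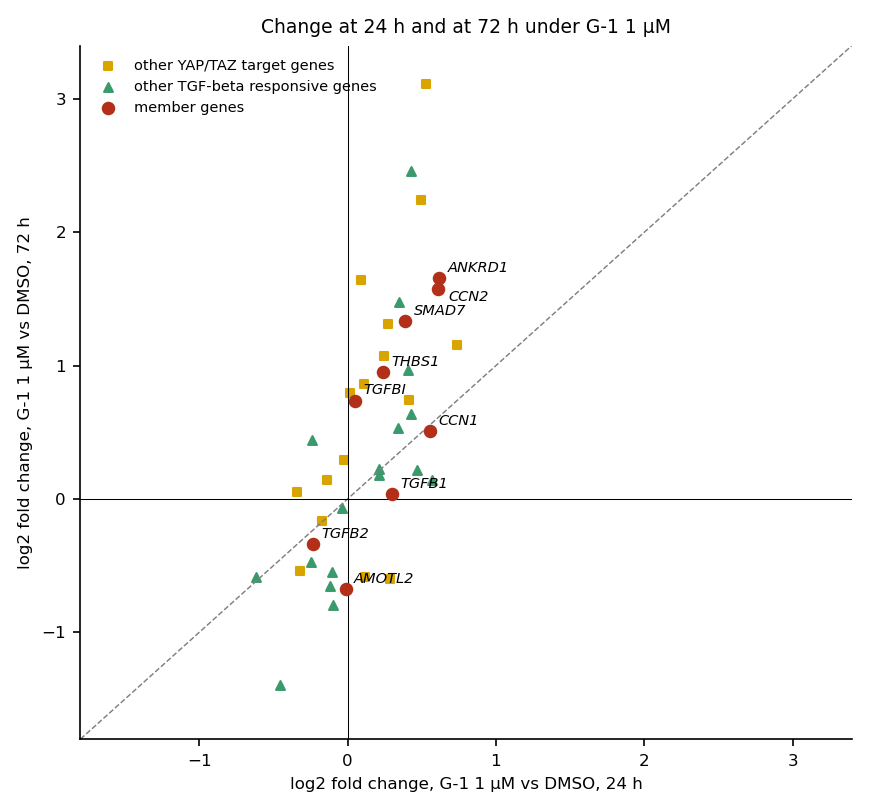
Log2 fold change of G-1 1 µM against DMSO at 24 h (horizontal axis) and at 72 h (vertical axis) for the 9 member genes and for the genes of the other YAP/TAZ target and other TGF-beta responsive lists (1 list gene is not shown); the dashed line marks equal change. CCN2, SMAD7 and TGFBI lie above the line and AMOTL2 below it, and CCN1 lies close to it.

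At the IC50, no member passed at either duration. The shares of all genes that passed were 0.232% after 24 h and 0.892% after 72 h, and those called 0.0562% and 0.119%. No member had an unadjusted p under 0.05 in limma at either duration, while 674 of all genes did after 24 h and 1366 after 72 h. With slide as a block, no member passed either. Fits within a single slide could decide little, since slide 2 held 1 DMSO array at 24 h and slide 1 held 1 IC50 array at 72 h. Differences of the members were 0.03 to 0.29 in size after 24 h and 0.01 to 0.45 after 72 h. The largest were those of CCN2 at 24 h (-0.29, 95% interval -0.61 to 0.04) and of ANKRD1 at 72 h (-0.45, 95% interval -1.10 to 0.20). For CCN2 at 24 h, the 4 IC50 arrays (3.41, 3.50, 3.22 and 3.35) lay just under the lowest DMSO array (3.51), a separation seen in 2.83% of all genes, with an adjusted p of 0.995. At the IC50, intervals for the 3 genes called at 1 µM for 72 h did not reach a fold change of 2 upwards: their upper bounds at 72 h were 0.02 for CCN2, 0.20 for ANKRD1 and 0.41 for SMAD7. No member passed for a difference in the effect of the IC50 between durations, with 0.014% of all genes passing and 0% called. The 95% intervals were wide, from -1.15 to 0.70 for ANKRD1 and from -0.51 to 0.53 for SMAD7.

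Compared directly with the IC50 at 72 h, 1 µM gave higher levels of ANKRD1 (2.11, SE 0.31, adjusted p = 7.7e-06), CCN2 (1.88, SE 0.16, adjusted p = 3.3e-09) and SMAD7 (1.29, SE 0.18, adjusted p = 2.7e-06). These 3 were called, and THBS1, CCN1 and TGFBI were also higher (0.96, 0.59 and 0.54), with overlapping arrays for CCN1 (adjusted p = 0.0014, but 0.0712 by the methods' t-test after Benjamini-Hochberg), while AMOTL2 was lower (-0.49, adjusted p = 0.0012). With normexp, SMAD7 was 0.78 higher (adjusted p = 1.7e-06), below the fold threshold. Of all genes, 64.8% passed in this comparison, 33.7% higher and 31.1% lower, and 11.5% were called. At 24 h, CCN2 (0.90, adjusted p = 0.00052) and CCN1 (0.71, adjusted p = 0.0015) were higher at 1 µM than at the IC50 and no member was called (ANKRD1 differed by 0.84, adjusted p = 0.0535, and by 1.05, adjusted p = 0.0248, without replicate 3 of the IC50 group; it also passed with 5 other settings of background correction, filter, table or samples, at adjusted p from 0.0106 to 0.0494), against 25.2% of all genes passing, 16.1% higher, and 1.45% called. The comparisons of 1 µM with the IC50 and with DMSO share the 1 µM arrays, so that the numbers are not independent of each other.

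In vehicle alone, CCN2 was lower after 72 h than after 24 h by 0.63 (a difference of -0.63, SE 0.16, adjusted p = 0.0334), and no other member passed. For 4 of the 9 members (CCN1, CCN2, TGFBI and TGFB1) the arrays of the durations did not overlap, against 12.6% of all genes, and 3.51% of all genes passed and 0.169% were called. CCN2 no longer passed in 7 of the 8 fits that left out 1 array, with adjusted p up to 0.109 without replicate 2 of DMSO at 24 h. Ordered by level, CCN2 was highest at 1 µM for 72 h (mean 4.61), followed by 1 µM for 24 h (4.27), DMSO for 24 h (3.65), the IC50 for 24 h (3.37), DMSO for 72 h (3.03) and the IC50 for 72 h (2.73). The highest pair and the lowest pair of neighbours in this order overlapped between arrays, and the neighbours in between did not. For SMAD7, the mean at 1 µM for 72 h was -0.16, and the other 5 means lay between -1.64 and -1.25 with overlapping arrays. For ANKRD1, the means were -0.24 at 1 µM for 72 h and -0.98 at 1 µM for 24 h, whose arrays did not overlap, and between -2.35 and -1.60 in the other 4 groups.

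Other genes of both pathways were counted from lists written from general knowledge, with earlier results of these data known. The list counts are thus a description and no independent support for the changes of the members. Of 12 tested genes for TGF-beta ligands, latency and receptors, 4 were higher and 4 lower at 1 µM for 72 h, with a median of -0.08. Of all genes, 65.6% passed in that comparison, 32.7% higher and 32.9% lower, and 12.6% were called. The 72 h counts of all lists are to be read against these shares. The highest were GDF15, a stress-induced ligand of the superfamily (0.99), and INHBA, the activin A subunit (0.97). The receptor kinases TGFBR1 (0.53) and TGFBR2 (0.60) also rose. LTBP3, which holds latent TGF-beta in the matrix, fell by 1.28, and it was also lower at the IC50 for 72 h (-0.98, adjusted p = 0.00073). For the coreceptor ENG the measured difference was -1.05, but 1 of the 4 treated arrays was well above background, so that its size is uncertain.

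Of 15 SMADs and SMAD regulators, 3 rose and 4 fell, with a median of 0.03. SMAD2 (0.02, adjusted p = 0.896) and SMAD3 (0.03, adjusted p = 0.709), the SMADs that the receptor activates, did not pass, although SMAD2 was lower at 24 h (-0.44, adjusted p = 0.0357). At the IC50 for 72 h, SMAD3 was lower than in DMSO (-0.39, adjusted p = 0.0098). The inhibitory SMAD6 fell by 0.78 while SMAD7 rose, and the pseudoreceptor BAMBI fell by 0.60. The common partner SMAD4 fell by 0.81 on its brightest probe but differed by -0.05 on its other probe, and the corepressor TGIF1 was 0.58 higher on its brightest probe and 0.93 lower (-0.93) on the other.

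Of 18 other TGF-beta responsive genes, 8 rose and 6 fell, with a median of 0.20. The transglutaminase gene TGM2 rose from a mean of -2.20 (SD 0.26) in DMSO to 0.26 (SD 0.21), by 2.46 (adjusted p = 2.3e-10), and the lysyl oxidase gene LOX by 1.48, while ID2, an inhibitor of differentiation, fell by 1.40. At 24 h, 3 rose and 2 fell, ID2 among the latter (-0.45, adjusted p = 0.0206), while 29.3% of all genes passed.

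Of 18 genes of the Hippo core and of YAP and TEAD, 6 rose and 2 fell at 72 h, with a median of 0.07. WWTR1, the gene of TAZ, rose from a mean of 1.74 (SD 0.09) to 2.80 (SD 0.13), by 1.07 (adjusted p = 9.9e-10), and was called. YAP1 rose by 0.28, TEAD4 by 0.74 and the kinase gene LATS2 by 0.86, itself known as a YAP target. TEAD1 (0.09) and LATS1 (-0.10) did not pass, and AMOT, the angiomotin gene related to AMOTL2, fell by 0.63.

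Of 16 other YAP or TAZ target genes, 9 rose and 3 fell, with a median of 0.77. Of these 16, 6 were called, all higher, against 12.6% of all genes called. NT5E, the ecto-5′-nucleotidase CD73, rose from -0.24 (SD 0.12) to 2.87 (SD 0.06), by 3.11 (adjusted p = 8.2e-13). IGFBP3, which binds insulin-like growth factors, rose by 2.24 and GADD45A, a growth arrest gene that other signals also induce, by 1.64. The guanine exchange factor gene DOCK5 rose by 1.31 on its brightest probe, and its other probe differed by 0.18 (adjusted p = 0.15).

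Among 15 cytoskeletal genes of the MRTF and SRF pathway, which shares mechanical inputs with YAP, 4 rose and 5 fell, with a median of -0.03. For CNN1 (calponin) the measured difference was 1.51, of uncertain size since 2 of the 4 vehicle arrays were well above background. TPM2 rose by 0.48, and ACTA2 and ACTG1 fell by 0.68 and 0.53. Of 9 family relatives of the members, 7 fell and none rose, with a median of -0.78, or -0.63 with bounds in place of the values of dim probes. Over 16 settings, between 5 and 7 relatives fell. Of the 7, CCN5 and THBS4 met the filter for testing only through groups other than the treated 1, so that it favoured a count as lower. THBS2 fell by 1.55 and THBS3 by 1.52, while their relative THBS1 rose. SMAD6 and AMOT, given above under other lists, are also among these 9 relatives. CCN5 (measured means -4.99 under 1 µM and -2.91 in DMSO) was at least 1.49-fold lower (adjusted p = 9e-05) and THBS4 (-3.88 and -2.85) at least 1.55-fold lower (adjusted p = 2e-06; a further THBS4 probe had an adjusted p of 0.17), since no treated array was well above background and the bound takes the lowest detected signal of each array. At the IC50, at most 1 gene of each list passed at either duration, against 0.232% of all genes after 24 h and 0.892% after 72 h. After 72 h these were LTBP3 (-0.98, adjusted p = 0.00073), SMAD3 (-0.39, adjusted p = 0.0098) and NT5E (0.60, adjusted p = 0.0381). SMAD3 and NT5E did not pass there in every setting.

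**Figure D4:**
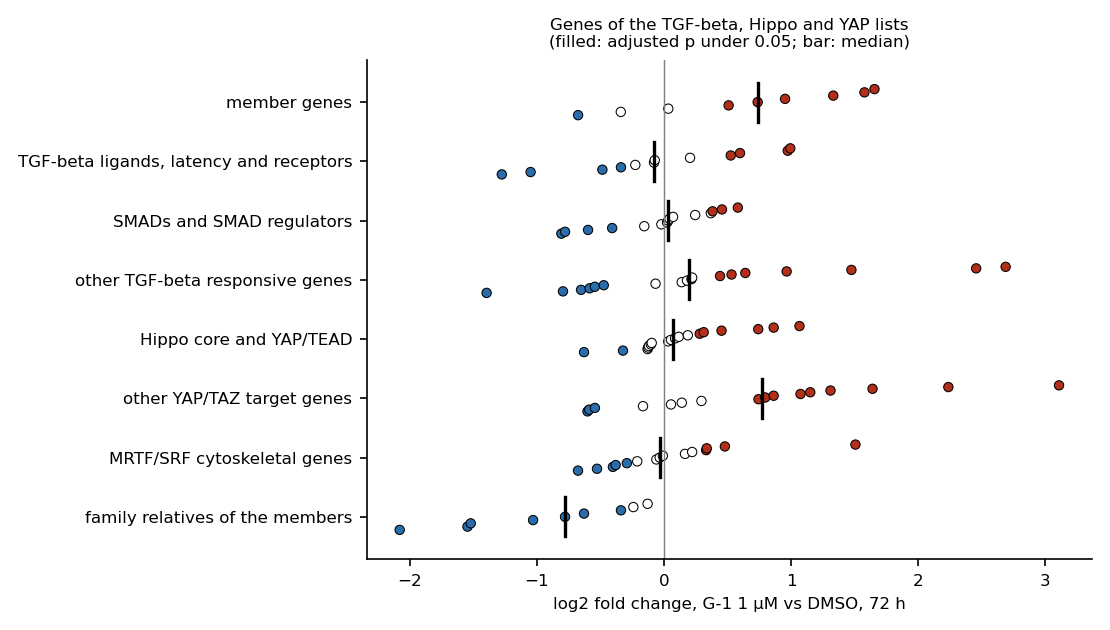
Log2 fold change of G-1 1 µM against DMSO at 72 h for the member genes and for 7 lists of related genes. Each point is a gene by its brightest probe, filled where the adjusted p was under 0.05 (red higher, blue lower), and bars are medians; the members and the other YAP/TAZ targets have medians of 0.74 and 0.77, and the family relatives of the members -0.78.

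For the called members, the genes with the most similar profile over the 6 group means were named, out of 14235, by the root mean square difference between profiles centred on their own mean. For CCN2 these were the keratin gene KRT80 (0.124 log2) and the carboxypeptidase gene CPA4 (0.141), for ANKRD1 the transcription factor gene MYC (0.117) and CPA4 (0.126), and for SMAD7 the repressor gene E2F7 (0.0444) and the scaffold gene HOMER3 (0.0705). These 5 genes changed by between 1.13 and 1.95 at 1 µM for 72 h and by between 0.30 and 0.80 at 24 h. Since they were picked by likeness over the same 6 group means, changes like those of the called members follow from the choice.

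Of 8 glioma and astroglial markers, 7 were well above background on all 24 arrays and ALDH1L1 on none. Their summed linear signal, relative to the 75th percentile of the array, lay between 982 and 1149 in DMSO and between 718 and 823 at 1 µM after 72 h. By brightest probe, 6 of the 7 were lower and 1 was higher, while 32.9% of all genes were lower and 32.7% higher. GFAP (-2.75) and S100B (-2.0) were called lower, and the fatty acid binding protein gene FABP7 was higher (0.76, adjusted p = 0.0025). CD44, counted as lower (-0.42), was 0.86 higher on its other probe (adjusted p = 2.1e-06, limma). Of the 10 markers of other cell types on the array, 5 were above background on no array (PTPRC, AIF1, PECAM1, KRT5 and KRT14) and 3 on all 24 (the neuronal markers RBFOX3 and SYT1 and the myelin gene MBP). Of the 5 tested, 4 were lower and 1 was higher, with RBFOX3 at -1.61, MOG at -1.05 (1 of 4 treated arrays above background) and SYT1 at 0.94. CDH5, on no treated array well above background, was at least 1.28-fold lower (adjusted p = 0.0494, limma). CDH5 and MOG met the filter for testing through other groups, so that it favoured a count as lower. Over 16 settings, between 2 and 4 markers were lower. RBFOX3, SYT1 and MOG had 2 probes each, and only the brightest of each met the background filter for testing. The summed signal of the 10 lay between 4.40 and 5.65 at 1 µM after 72 h and between 7.51 and 9.62 in DMSO. The part of these shifts in the changes of the members was not tested.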

How the data were processed

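Total RNA of the 24 cultures had been labelled with Cy3 and hybridized by the authors to Agilent arrays. For each array, the authors deposited the intensity of every spot as Feature Extraction wrote it (version 12.1.1.1 per the file headers, 10.7.3.1 in the submitters' processing notes), corrected for background but not normalized between arrays. A probe-level table with log2 values was deposited as well. Samples were grouped by their titles. In 2 groups, the IC50 at 24 h and the 1 µM dose at 72 h, the duration entry of the labels named the other time, and the methods give a lower DMSO concentration than the labels. The members and lists were chosen with earlier results of these data known.

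Spots flagged as outliers were removed, replicate spots were averaged on the log2 scale, and each array was centred on its 75th percentile. Of the 58201 probes, 83 lacked a value on some array, and 22970 were kept for testing because every array of 1 or more groups read them well above background. RefSeq accessions named 35032 probes. A model of 6 group means was fitted by limma 3.58.1 (R 4.3.3), with two-sided moderated tests and Benjamini-Hochberg adjustment, after a check on simulated data. The brightest probe stood for a gene. Permutation tests were exact and two-sided. All members were named, with up to 4 genes per list of the largest change at 1 µM for 72 h among those that passed, and 11 pathway genes whatever their values, of which 1 is not reported here. Alternatives were other scalings and background corrections, filters, the deposited table, smaller fits, replicate or slide blocks, the methods' t-test, no fold threshold, any probe, and each array left out. The number of arrays limits the precision.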

Additional observations from a re-analysis of the deposited data

Results flagged for a closer look

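For 4 members, the effect of G-1 1 µM differed between durations by the interaction test in limma. Relative to DMSO of the same duration, CCN2 and SMAD7 changed more at 72 h than at 24 h, by 0.97 and 0.94 on the log2 scale. TGFBI did so by 0.69, and AMOTL2 changed downwards, by -0.66. Shifts of the vehicle between durations are part of these differences.

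In 6 of 60 sets of 4 arrays (10 probes in 6 groups), 1 array stood apart from the other 3 by Dixon's test, and chance alone flags about 1 set in 20. These were CCN2 in DMSO for 24 h (replicate 2, 3.95) and at 1 µM for 72 h (replicate 2, 4.31), ANKRD1 at the IC50 for 24 h (replicate 3, -1.2), AMOTL2 at 1 µM for 24 h (replicate 2, 5.66), TGFB1 at the IC50 for 24 h (replicate 4, 1.69) and the dimmer THBS1 probe at 1 µM for 72 h (replicate 2, 1.43).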

How the results depend on the processing

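Without a fold threshold, 2 members were called at 1 µM against DMSO for 24 h and 7 for 72 h, 2 and 7 against the IC50, 1 in DMSO between durations and 4 in the interaction of 1 µM with duration. For that interaction, where none was called, 1 was called with quantile normalization, normexp, the arrays of the comparison alone or the replicate block, and between 0 and 2 with an array left out (2 without replicate 4 of DMSO 24 h or replicate 3 of DMSO 72 h). Between 1 µM and the IC50 at 24 h, 0 to 1 was called with an array left out (1 without replicate 3 of IC50 24 h). No passing fold change turned its sign. Over members, comparisons and settings, 1617 fold changes kept their side of the threshold, 39 passed newly and 18 no longer passed. The CCN2 difference in DMSO between durations did not pass in 6 settings besides those with an array left out, among them slide 1 alone (-0.55, adjusted p = 0.285). Slide 2 alone, with 1 DMSO array at 24 h, gave a difference of -0.90. The causes were not tested. Scaling to the 50th percentile moved the median of all genes between 1 µM and the IC50 from 0.03 to -0.12 at 24 h and from 0.02 to -0.11 at 72 h. None of the list genes that passed at 1 µM turned its sign under another scaling. List counts at 1 µM for 72 h stayed within 2 genes over 16 settings, and those at 24 h varied more (3 to between 2 and 8 for other TGF-beta responsive genes rising). Deviations of arrays with the same replicate number correlated between -0.32 and 0.53 (33 of 60 pairs above 0.1, 13 of 24 arrays best with their own number). Their mean was 0.13, against -0.04 for arrays with different numbers. Since the correlations varied by pair, the main model did not pair the samples by number. A fit with the replicate block passed 5 more fold changes and lost none of 81, namely ANKRD1 at 1 µM for 24 h against DMSO (0.62, adjusted p = 0.0183) and the IC50 (0.84, adjusted p = 0.00339), the interactions of 1 µM with duration for ANKRD1 (1.04, adjusted p = 0.00597) and THBS1 (0.71, adjusted p = 0.0378), and TGFBI in DMSO between durations (-0.44, adjusted p = 0.00136). CCN5, THBS4 and CDH5, above background on no treated array, gave bounds only. The sizes for ENG, CNN1 and MOG, above background on some arrays of a group, are uncertain. The methods' t-test could not be run for the interactions.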

Other observations

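Levels of 2 members followed the replicate number, which was noticed after their values were seen. For ANKRD1, replicate 3 was the highest of its group in all 6 groups, and the same replicate number was highest throughout for 1.5% of the 14235 genes. For TGFBI, replicates 1 and 2 lay above replicates 3 and 4 in all 6 groups, and such a fixed split into pairs was found for 1.58% of genes. No reason for these patterns was tested.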
